A study of Arabidopsis thaliana with 6 samples.

Results

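Anthocyanin and flavonol decorating enzymes attach sugars and acyl groups to the flavonoid skeleton in Arabidopsis thaliana, and 10 genes were followed by their TAIR identifiers among the 32319 TAIR genes of the deposited expression table. They are UGT78D2, UGT79B1 (also named UF3GT), UGT75C1, 3AT1, 3AT2, 5MAT, SAT (SCPL10), UGT78D1, UGT78D3 and GSTF12. All RNA came from wild-type Col-0 seedlings, labelled as 4 days old, although the growth text gives 3 days at transfer. Seedlings of the first treatment spent 1 h in liquid medium with sucrose and 100 µM NAE 18:3 (N-linolenoylethanolamine, the ethanolamide of linolenic acid), and those of the control treatment spent the same time in that medium with 0.07% DMSO. Each treatment had 3 libraries, which the labels call biological replicates. How much DMSO the NAE 18:3 medium held is not given in the sources used here, so compound and solvent cannot be told apart. The genes were chosen by their identifiers and roles, but also with their FPKM difference between these treatments known, so that difference is given for them as a description, without a test.

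Anthocyanins are red and purple pigments, and flavonols are colourless sunscreens built from the same precursors. UGT78D2 adds glucose to the 3-position of both anthocyanidins and flavonols, which makes the first stable glycoside. In anthocyanins UGT79B1 then adds xylose to that glucose and UGT75C1 adds glucose at the 5-position, while 3AT1 and 3AT2 attach coumaroyl groups, 5MAT attaches malonyl groups and SAT attaches sinapoyl groups. GSTF12, the TRANSPARENT TESTA 19 protein, is a glutathione transferase relative that anthocyanins need to accumulate in the vacuole. UGT78D1 and UGT78D3 serve the flavonols, adding rhamnose and arabinose at the 3-position. Young seedlings on sucrose are known to make anthocyanins, chiefly in the hypocotyl and cotyledons.

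Values are FPKM, fragments scaled to transcript length and to the fragments mapped in the library, which can be compared between genes of different length. Values were available for 9 of the 10 genes, and 3AT1 was not analysed here. A locus is a stretch of assembled transcription, and most genes had a locus to themselves. The SAT gene shares a locus with its neighbour SNG1, so its own transcript value is used below and the locus value is given beside it. UGT78D3 lay under the filter of a mean of 1 FPKM over the 6 libraries that was set for the fit across all loci. The other 7 genes had a locus of their own that passed it. For 4 of these, UGT79B1, UGT75C1, 5MAT and GSTF12, the NAE 18:3 mean was under 1 FPKM, so they passed through their DMSO values.

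Every library was deposited as FPKM, so total counts cannot be read from the table. Depth relative to NAE 18:3 replicate 1 was taken from the commonest ratio of values under 0.3 FPKM. It was 0.993 and 1.26 for the other NAE 18:3 libraries, and 0.483, 0.753 and 0.966 for DMSO replicates 1, 2 and 3. Of 18194 loci tested, 39.2% were called lower and 44.1% higher in NAE 18:3 by limma at a Benjamini-Hochberg adjusted p under 0.05. With all libraries brought to one upper quartile these shares were 52.2% and 32.2%. The tissue was a whole seedling, and markers of its parts moved with the treatment. Summed over 6 green tissue markers the level was 41358 to 44227 FPKM in NAE 18:3 and 22465 to 23679 FPKM in DMSO. RBCS1A made up most of this sum, with means of 30093 FPKM in NAE 18:3 and 20328 FPKM in DMSO. Of the 6 markers 5 rose, or 4 with quantile normalization. The 1 that fell, TMM, passed the filter through DMSO. Summed over 11 root markers the level was 57.9 to 63.5 FPKM in NAE 18:3 and 108 to 114 FPKM in DMSO. CASP1 was the largest part of the DMSO sum, with means of 12.0 FPKM in NAE 18:3 and 34.4 FPKM in DMSO. Of 9 root markers tested, 8 fell and 1, SCR, was level, with means of 25.0 FPKM in NAE 18:3 and 25.1 FPKM in DMSO. PLT1, EXPA7 and RHD6, among those that fell, passed the filter through DMSO, so nothing is drawn from this count. It was 4 with a filter of 5 FPKM and 10 with no filter. Among the 5 seed coat genes of proanthocyanidin synthesis, BAN, TT12 and TT2 were listed at 0 in all 6 libraries. TT10, below the filter, stood at 0.153, 0.259 and 0.222 FPKM in NAE 18:3 and at 0.424, 0.441 and 0.528 FPKM in DMSO. The joined locus of AHA10 was called lower, with a log2 change of -0.41, a call not made without NAE 18:3 replicate 2, without DMSO replicate 3, with quantile normalization, with a filter of 5 FPKM, with joined loci left out or with transcripts summed per TAIR gene. In bulk RNA, fewer cells of a type and less RNA per cell cannot be told apart, and the part of tissue make-up in the results below was not tested.

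UGT79B1, UGT75C1, 5MAT and GSTF12 averaged under 1 FPKM in NAE 18:3. UGT79B1 (AT5G54060), the anthocyanin xylosyltransferase, stood at 0.146, 0.334 and 0.202 FPKM in the NAE 18:3 libraries and at 19.2, 21.2 and 19.2 FPKM in the DMSO libraries. All 3 NAE 18:3 values were low, and their mean of 0.228 ± 0.096 FPKM was 1.15% of the DMSO mean of 19.8 ± 1.13 FPKM (SD, n = 3 each). On the log2(FPKM + 1) scale the difference, NAE 18:3 minus DMSO, was -4.09 ± 0.09 (standard error from limma), and log2 changes below are given in the same way. This scale understates the change of a gene near 0.

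UGT75C1 (AT4G14090), the anthocyanin 5-O-glucosyltransferase, was listed at 0 in the 3 NAE 18:3 libraries and stood at 10.3, 11.8 and 12.9 FPKM in the DMSO libraries. It was the one gene of the 9 with a value of 0 in all libraries of a treatment. No fold change is given against a group at 0. 5MAT (AT3G29590), the malonyltransferase that acts on the glucose placed by UGT75C1, stood at 0.123, 0.291 and 0.259 FPKM in NAE 18:3 and at 17.6, 19.003 and 19.8 FPKM in DMSO. Its NAE 18:3 mean was 1.19% of its DMSO mean and its log2 change was -4.02 ± 0.09. All NAE 18:3 values lay far below all DMSO values for both genes, and values lay wholly below for 39.7% of all loci.

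GSTF12 (AT5G17220), which encodes the vacuolar accumulation factor, was the most abundant of the 9 genes in DMSO by its mean. It stood at 0.477, 0.802 and 0.567 FPKM in NAE 18:3 and at 50.9, 59.6 and 57.6 FPKM in DMSO. The highest NAE 18:3 value was 1.58% of the lowest DMSO value. The NAE 18:3 mean was 1.10% of the DMSO mean, close to the shares of UGT79B1 and 5MAT. Its log2 change of -5.14 ± 0.09 was the largest decrease among the 9 genes, but with a pseudocount of 0.1 FPKM it was -6.32 and that of UGT75C1, listed at 0 in NAE 18:3, was -6.87.

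**Figure D1:**
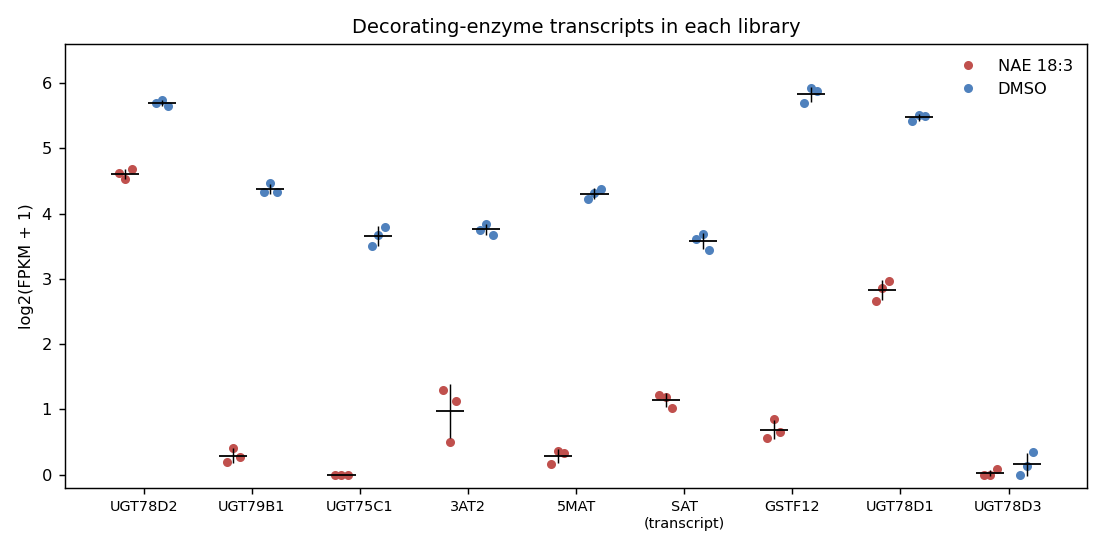
Level of each gene in each library as log2(FPKM + 1), with NAE 18:3 in red and DMSO in blue; points are libraries, horizontal lines are means and vertical lines are 1 SD (n = 3). UGT78D2 kept the highest NAE 18:3 level at 22.2 to 24.7 FPKM, UGT75C1 was listed at 0 in the 3 NAE 18:3 libraries, and UGT78D3 overlaps between the treatments.

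The acyltransferases of the anthocyanin 3-O-side chain, 3AT2 and SAT, are given next. 3AT2 (AT1G03495), a coumaroyltransferase, stood at 1.45, 0.417 and 1.18 FPKM in NAE 18:3 and at 12.5, 13.4 and 11.8 FPKM in DMSO. Its NAE 18:3 mean was 8.09% of its DMSO mean, and the log2 change was -2.79 ± 0.19, the widest error among the 7 genes. NAE 18:3 replicate 2 was the low library, and the change was -2.55 without it. The coding sequences of 3AT2 and 3AT1 in the RefSeq TAIR10.1 annotation were 97.6% identical over 1041 aligned bases, with an exact shared run of 220 bases. Fragments of these copies may be split between them, so the 3AT2 values are uncertain as to which copy they count. A second assembled locus held another 3AT2 transcript together with AT1G03502. That transcript stood at 0.242, 0 and 0.286 FPKM in NAE 18:3 and at 2.30, 0.970 and 2.01 FPKM in DMSO, lower in NAE 18:3 in every library, while the values of the whole second locus overlapped between the treatments.

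SAT (AT2G23000), the sinapoyltransferase, gave opposite directions by transcript and by locus. Its transcript stood at 1.34, 1.28 and 1.03 FPKM in NAE 18:3 and at 11.2, 11.9 and 9.91 FPKM in DMSO, so that the NAE 18:3 mean was 11.1% of the DMSO mean. The value of the locus that joins SAT with SNG1 (AT2G22990) was 340.7, 344.2 and 338.0 FPKM in NAE 18:3 and 33.3, 31.2 and 28.9 FPKM in DMSO. SNG1 encodes sinapoylglucose:malate sinapoyltransferase, which takes the same sinapoylglucose donor to make sinapoylmalate. The 7 SNG1 transcripts of the locus summed to 339.8 ± 2.99 FPKM in NAE 18:3 and 20.1 ± 1.76 FPKM in DMSO (SD, n = 3 each), which is a log2 change of 4.01 ± 0.06. SAT made up 0.393%, 0.373% and 0.304% of the locus value in the NAE 18:3 libraries and 33.5%, 38.2% and 34.3% of it in the DMSO libraries. The coding sequences of SAT and SNG1 were 86.0% identical, with a longest exact shared run of 32 bases. How well Cufflinks divided fragments between them cannot be checked from FPKM values.

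**Figure D2:**
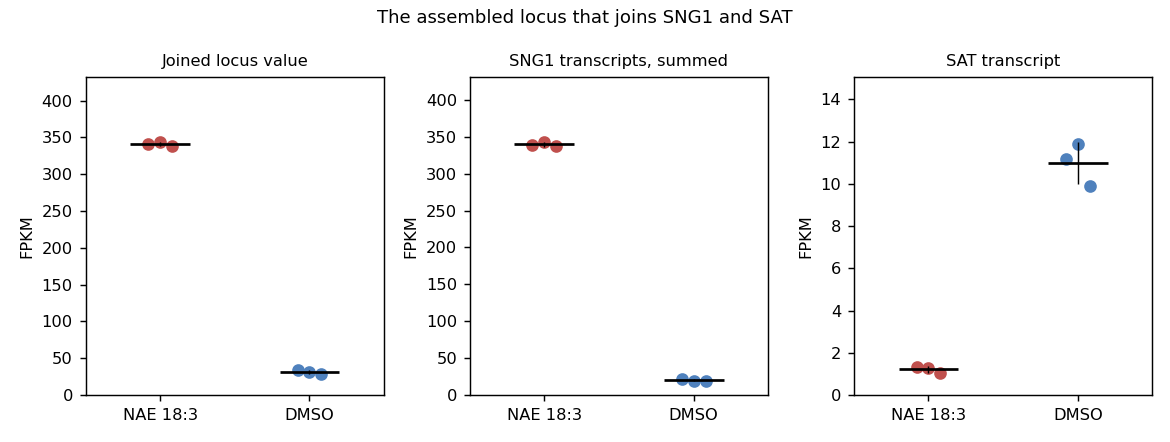
FPKM of the joined locus, of its SNG1 transcripts summed and of its SAT transcript, in NAE 18:3 (left in each panel) and DMSO (right); points are libraries, horizontal lines are means and vertical lines are 1 SD (n = 3), and each panel has its own scale from 0. The locus and SNG1 averaged 341 and 339.8 FPKM in NAE 18:3, while SAT averaged 1.22 FPKM in NAE 18:3 and 10.99 FPKM in DMSO.

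Flavonols are substrates of UGT78D1, UGT78D2 and UGT78D3. UGT78D1 (AT1G30530), the flavonol 3-O-rhamnosyltransferase, stood at 5.34, 6.30 and 6.84 FPKM in NAE 18:3 and at 41.7, 44.6 and 44.3 FPKM in DMSO. Its NAE 18:3 mean was 14.1% of its DMSO mean, and its log2 change was -2.64 ± 0.08. UGT78D2 (AT5G17050), which glucosylates flavonols and anthocyanidins alike, stood at 23.5, 22.2 and 24.7 FPKM in NAE 18:3 and at 50.9, 52.3 and 49.1 FPKM in DMSO. It kept 46.3% of its DMSO mean, and its log2 change of -1.08 ± 0.05 was the smallest among the 8 genes above the filter. All NAE 18:3 values lay below all DMSO values for both genes, beside 39.7% of all loci.

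UGT78D3 (AT5G17030), the flavonol 3-O-arabinosyltransferase, was near 0 throughout. It was listed at 0, 0 and 0.0592 FPKM in NAE 18:3 and at 0, 0.0996 and 0.271 FPKM in DMSO. The treatments overlapped and no difference was detectable at this depth. UGT78D3 and UGT78D2 lie on the minus strand of chromosome 5 in the TAIR10.1 annotation with UGT78D4 (AT5G17040) between them, in a span of 6457 bases that holds no other annotated gene. UGT78D4, for which no role is given here, stood at 0.10045, 0.408 and 0.160 FPKM in NAE 18:3 and at 9.08, 8.28 and 7.34 FPKM in DMSO. Its NAE 18:3 mean was 2.70% of its DMSO mean, so these 3 neighbours differed in level and, for UGT78D4 and UGT78D2, in the share kept. The coding sequence of UGT78D2 was 83.1% identical to that of UGT78D3 and 83.7% to that of UGT78D4, with longest exact shared runs of 44 and 50 bases.

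The order of levels differed between the treatments. In DMSO, GSTF12 and UGT78D2 led with overlapping ranges, followed by UGT78D1 and then by UGT79B1 and 5MAT, which overlapped each other. 3AT2, UGT75C1 and SAT came next, each overlapping its neighbour, and UGT78D3 was last. In NAE 18:3, UGT78D2 led, UGT78D1 came second without overlap, and no other gene exceeded 1.45 FPKM. SAT and 3AT2 overlapped there, as did 3AT2 and GSTF12, UGT79B1 and 5MAT, and UGT78D3 and UGT75C1. Ratios within a library do not depend on how libraries were scaled. The level of GSTF12 per level of UGT78D2 was 0.026 ± 0.008 in NAE 18:3 and 1.10 ± 0.09 in DMSO, and that of UGT78D1 per UGT78D2 was 0.262 ± 0.031 in NAE 18:3 and 0.858 ± 0.042 in DMSO (SD, n = 3 each). UGT79B1 per UGT78D2 was 0.0098 ± 0.0046 in NAE 18:3 and 0.391 ± 0.013 in DMSO.

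Summed over the 9 genes, the level was 33.0 ± 1.69 FPKM in NAE 18:3 and 224.3 ± 9.77 FPKM in DMSO. UGT78D2 held 71.3 ± 1.24% of that sum in NAE 18:3 and 22.7 ± 0.985% in DMSO. GSTF12 held 1.88 ± 0.575% in NAE 18:3 and 24.95 ± 1.05% in DMSO. The shares of UGT78D1 overlapped, at 18.7 ± 1.90% in NAE 18:3 and 19.4 ± 0.326% in DMSO.

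**Figure D3:**
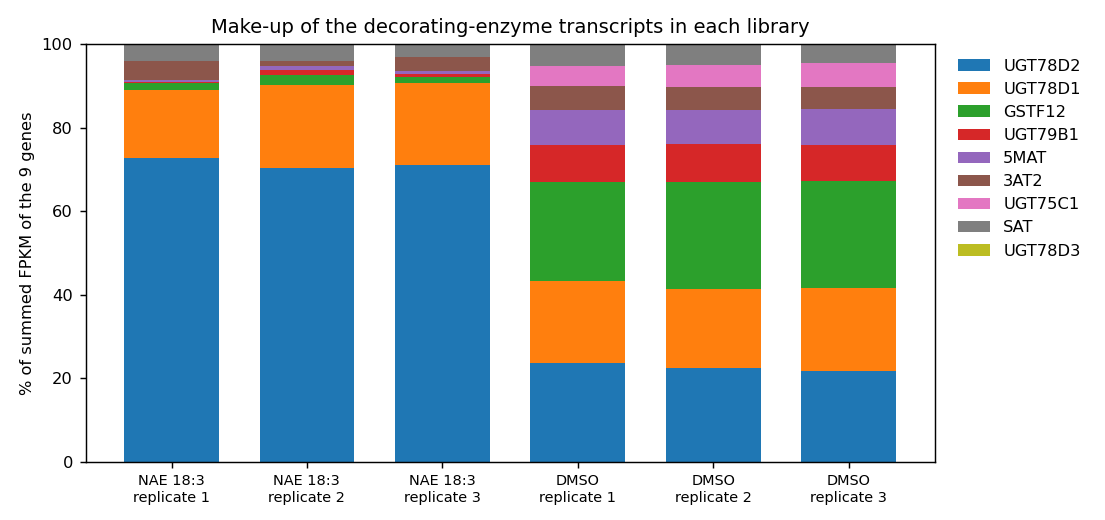
Share of each gene, in percent, in the summed FPKM of the 9 genes, as 1 stacked bar for each library, with the NAE 18:3 libraries on the left and the DMSO libraries on the right. UGT78D2 fills 71.3% of the NAE 18:3 bars on average and 22.7% of the DMSO bars.

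In the fit across all loci, 7 of the 9 genes were called lower by their locus values, beside 39.2% of all loci. The SAT locus was called higher, beside 44.1% of all loci. With transcripts summed for each TAIR gene, 8 were called lower, beside 39.3% of TAIR genes, and none higher, beside 44.5%. All 3 NAE 18:3 values lay below all 3 DMSO values for 7 of the 9 genes by locus, beside 39.7% of all loci, and above them for the SAT locus, beside 44.9%. A log2 change of -3 or below together with a call was found for 0.753% of all loci, and UGT79B1, UGT75C1, 5MAT and GSTF12 were among them. Nothing is drawn from these counts, since the genes were chosen with this difference known.

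The upstream sequences of UGT79B1, 5MAT and UGT78D2 are shown because UGT79B1 and 5MAT kept little of their DMSO level and UGT78D2 kept the most, and because their windows overlap no other annotated gene. Each runs 5′ to 3′ along the gene's strand and ends at the base before the annotated gene start (RefSeq, TAIR10.1, all on the minus strand). The UGT79B1 window is chr5:21938397-21938646, the 5MAT window is chr3:11400333-11400582 and the UGT78D2 window is chr5:5609590-5609839. Capitals mark the G-box CACGTG, which bZIP and bHLH proteins bind, and the MYB recognition element ANCNNCC, searched on both strands.
UGT79B1: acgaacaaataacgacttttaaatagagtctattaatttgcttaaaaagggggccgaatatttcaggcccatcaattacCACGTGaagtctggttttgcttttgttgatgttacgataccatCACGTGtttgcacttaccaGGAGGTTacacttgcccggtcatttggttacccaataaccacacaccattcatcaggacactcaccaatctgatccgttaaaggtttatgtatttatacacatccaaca
5MAT: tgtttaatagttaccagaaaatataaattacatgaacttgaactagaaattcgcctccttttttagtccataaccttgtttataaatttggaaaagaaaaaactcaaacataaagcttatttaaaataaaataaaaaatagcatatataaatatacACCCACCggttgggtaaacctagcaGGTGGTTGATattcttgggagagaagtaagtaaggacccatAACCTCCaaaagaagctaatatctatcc
UGT78D2: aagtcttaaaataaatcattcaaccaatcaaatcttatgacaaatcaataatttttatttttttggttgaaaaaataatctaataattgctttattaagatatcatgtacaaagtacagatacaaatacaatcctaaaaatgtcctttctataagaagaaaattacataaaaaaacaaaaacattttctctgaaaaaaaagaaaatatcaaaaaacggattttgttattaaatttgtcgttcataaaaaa

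UGT79B1 held 2 G-boxes, starting 171 and 128 bases before the gene start, and 1 MYB recognition element. 5MAT held 4 MYB recognition elements, of which 2 overlap each other, and no G-box. UGT78D2 held neither motif in this window, nor the E-box CANNTG. The windows of 3AT2 and UGT78D1, which kept 8.09% and 14.1% of their DMSO means, also held no G-box and no MYB recognition element. That of UGT78D3, near 0 in both treatments, held 2 MYB recognition elements. A relation between motifs and levels was not tested. Among the windows of the 10 genes the G-box was found in 2, UGT79B1 and SAT, and it was found in 6.49% of 27438 windows of the same length before nuclear protein-coding genes. The MYB recognition element was in 7 of the 10 windows and in 48.8% of all windows, and the E-box, which includes every G-box, was in 6 of the 10 and in 55.3% of all windows. ACGT, the core inside the G-box, was in 3 of the 10 and in 44.1% of all. The MYB elements AACCTAA and ACCTAAC were in none of the 10 windows, against 5.72% and 2.46% of all windows. A match is a run of letters and not a shown binding site.

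The enzymes that build the skeleton were also lower. All 8 core pathway genes were called lower, beside 39.2% of all loci, with a median log2 change of -3.32 beside 0.06 for all loci tested. The 8 genes were chosen with earlier results of these data known, so this is a description, and DFR and LDOX passed the filter through their DMSO values. DFR (AT5G42800) and LDOX (AT4G22880), which lead from dihydroflavonols to anthocyanidins, stood at 0.544 ± 0.199 and 0.882 ± 0.107 FPKM in NAE 18:3 and at 46.9 ± 3.29 and 56.5 ± 1.72 FPKM in DMSO (SD, n = 3 each). These are 1.16% and 1.56% of their DMSO means, beside 1.10% to 1.19% for GSTF12, UGT79B1 and 5MAT. CHS (AT5G13930), chalcone synthase, kept 3.07% and the flavonoid 3′-hydroxylase gene (AT5G07990) kept 6.94%. CHIL (AT5G05270), a chalcone isomerase-like helper protein, kept 8.31% and FLS1 (AT5G08640), flavonol synthase, kept 9.24%. F3H (AT3G51240), flavanone 3-hydroxylase, kept 11.2% and CHI (AT3G55120), chalcone isomerase, kept 11.4%. UGT78D1 and UGT78D2, at 14.1% and 46.3%, kept more than any of these 8 genes. These differences between genes were not tested.

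**Figure D4:**
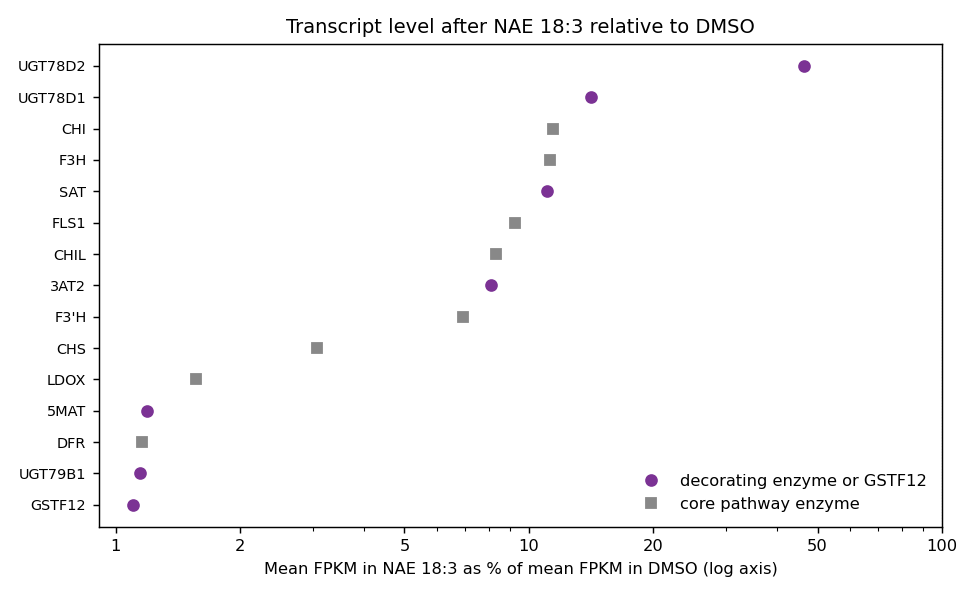
Mean FPKM in NAE 18:3 as a percentage of mean FPKM in DMSO, on a log axis, for 7 decorating genes (circles, SAT by its transcript) and 8 core pathway enzymes (squares); UGT75C1, listed at 0 in NAE 18:3, and UGT78D3, near 0 in both treatments, are not drawn. GSTF12, UGT79B1, DFR, 5MAT and LDOX lie between 1.10% and 1.56%, and UGT78D2 lies apart at 46.3%.

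Among 7 tested loci of other flavonoid decoration and donor supply, 3 fell and 2 rose, beside 39.2% and 44.1% of all loci, and the median log2 change was -0.13. Counts this near the shares of all loci are no result about the group. UGT89C1 (AT1G06000), the flavonol 7-O-rhamnosyltransferase, fell to 14.2 ± 0.565 FPKM in NAE 18:3, against 91.3 ± 2.81 FPKM in DMSO (log2 change -2.61). This was 15.5% of its DMSO mean, beside 14.1% for UGT78D1, the rhamnosyltransferase of the 3-position. RHM1 (AT1G78570), which makes the UDP-rhamnose that both use, fell to 39.2% of its DMSO mean. UGT84A2 (AT3G21560), which makes the sinapoylglucose used by SAT and SNG1, rose to 101 ± 3.14 FPKM in NAE 18:3, against 46.7 ± 1.57 FPKM in DMSO. UGT73C6 (AT2G36790), a flavonol 7-O-glucosyltransferase, was called higher, but its values of 8.27, 0.515 and 5.43 FPKM in NAE 18:3 overlapped those of 1.22, 0 and 0 FPKM in DMSO. UGT73C6 passed the filter through NAE 18:3. Only 1 locus of this group rose without NAE 18:3 replicate 1 or 3, or without DMSO replicate 2 or 3. The same count was found with no filter and with a filter of 5 FPKM.

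Genes for regulators of the decorating enzymes were counted in the same fit. Of 12 activator genes 7 passed the filter, and 5 of these were called lower and 2 higher, beside 39.2% and 44.1% of all loci. The 5 called lower, PAP1, TT8, EGL3, MYB12 and MYB111, averaged under 1 FPKM in NAE 18:3 and passed the filter through DMSO, so nothing is drawn from their count. It was 2 with a filter of 5 FPKM and 8 with no filter, and 2 were higher in both. PAP1 (AT1G56650), the MYB factor that activates the late anthocyanin genes, fell to 0.727 ± 0.303 FPKM in NAE 18:3, against 22.2 ± 0.691 FPKM in DMSO. MYB111 (AT5G49330), a MYB factor of flavonol genes, fell by 2.83 on the log2 scale. TTG1 (AT5G24520), the WD40 partner of the MYB and bHLH factors, rose by 1.52, and HY5 (AT5G11260), a bZIP factor of light responses, rose by 0.91. Of 6 repressor genes 4 rose, 1 fell and 1 was called neither way (median log2 change 1.58), beside 44.1% of all loci called higher and 39.2% called lower. MYBL2 (AT1G71030), a single-repeat MYB repressor of anthocyanin genes, stood at 292, 295 and 294 FPKM in NAE 18:3 and at 6.77, 6.52 and 6.57 FPKM in DMSO. Its log2 change was 5.27 (limma, Benjamini-Hochberg adjusted p = 7.5e-12). The regulator lists were chosen with earlier results of these data known, so this p is no independent test. LBD37 (AT5G67420), a nitrogen-responsive repressor, rose by 1.51, while SPL9 (AT2G42200) fell by 0.45.

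Relatives in the same enzyme families were counted beside the 39.2% of all loci called lower and the 44.1% called higher, and no count below is read as a result about a family. Of 8 relatives among the UGT75, UGT78 and UGT79 genes 4 were tested, of which 2 rose and 2 fell, and with no filter 2 rose and 5 fell. UGT75B1 (AT1G05560) and UGT75D1 (AT4G15550), of the family of UGT75C1, rose by 3.27 and 2.33 on the log2 scale, while UGT79B2 (AT4G27560), of the family of UGT79B1, fell by 1.53. UGT78D4, which passed the filter through DMSO, fell by 2.92. Below the filter, UGT75B2, UGT79B3 and UGT79B9 stood at 2.52%, 6.22% and 3.36% of their DMSO means, and UGT79B6 was listed at 0 in all 6 libraries.

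Of 7 BAHD relatives of the acyltransferases 3 were tested and all 3 rose, and with no filter 3 rose and 2 fell. AT3G29670, 1 of the 3, passed the filter through NAE 18:3, and with a filter of 5 FPKM 2 rose. PMAT1 (AT5G39050), a malonyltransferase of phenolic glucosides, stood at 99.6 ± 3.75 FPKM in NAE 18:3 and 12.2 ± 0.931 FPKM in DMSO, and AT5G39080 rose by 1.62. Below the filter, ACT (AT5G61160) and AT3G29680 stood at 14.8% and 38.2% of their DMSO means. Of 5 tested loci of SCPL relatives of SAT, 3 fell and 2 rose, 1 of the rises being that of the joined locus of SNG1. SCPL12, among those that fell, passed the filter through DMSO, and with a filter of 5 FPKM 2 fell and 2 rose. SCPL13 (AT2G22980) rose to 52.1 ± 2.04 FPKM in NAE 18:3, against 1.015 ± 0.143 FPKM in DMSO, while SCPL9 (AT2G23010) fell by 2.57 and SCPL11 (AT2G22970) by 1.02. Of 11 loci of phi glutathione transferases 5 fell, 3 rose and 3 missed the threshold, and GSTF5, GSTF11 and GSTF13, among those that fell, passed the filter through DMSO. With upper-quartile scaling 8 fell and 2 rose, and with a filter of 5 FPKM 2 fell and 2 rose. Of the 3 rises, the loci of GSTF8 and of GSTF6 with GSTF7 are joined, and with joined loci left out 1 rise remained in the count. GSTF9 (AT2G30860) fell by 1.96 and GSTF2 (AT4G02520) by 1.34, while GSTF4 (AT1G02950) rose by 1.02. GSTF11, GSTF5 and GSTF13 stood at 1.76%, 3.18% and 10.6% of their DMSO means, beside 1.10% for GSTF12. GSTF8 (AT2G47730) rose to 4.30 times its DMSO mean, and the joined locus of GSTF6 and GSTF7 had a log2 change of 0.11.

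**Figure D5:**
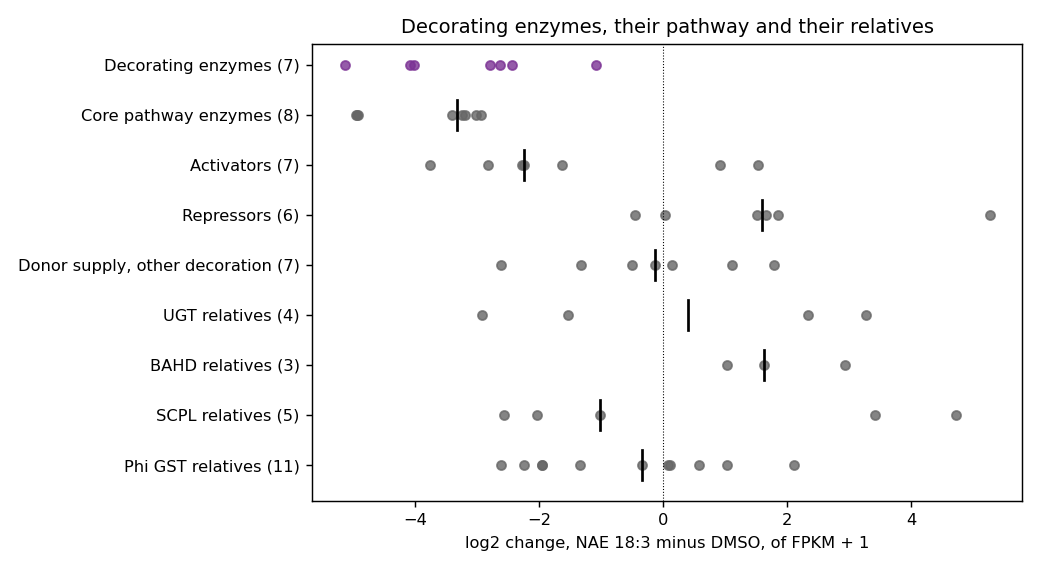
Difference in log2(FPKM + 1) between NAE 18:3 and DMSO (positive where NAE 18:3 is higher) of 7 decorating genes (top row, SAT by its transcript, without UGT75C1 and UGT78D3) and of the tested loci of the pathway, regulator and family lists; points are genes or loci, black ticks are list medians, and numbers in brackets count the points. The decorating genes lie between -5.14 and -1.08 and the core pathway enzymes between -4.96 and -2.94, while each list of UGT, SCPL and phi GST relatives has points on both sides of 0.

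The loci whose levels over the 6 libraries were most like those of the decorating genes were found by Pearson's r with the mean standardised profile of the 7 genes that had a tested locus of their own. The first was 4CL3 (AT1G65060), which encodes a 4-coumarate:CoA ligase of the flavonoid branch, with r = 0.99996. It stood at 1.64, 1.49 and 1.82 FPKM in NAE 18:3 and at 21.1, 23.1 and 22.2 FPKM in DMSO. AT2G25210, AT5G47930 and MORF1 (AT4G20020) followed with r = 0.99993, and AT1G04480 with r = 0.99990. No role is given here for the loci after 4CL3, and no shared pathway is drawn from this likeness. The points share 2 treatments, and 2771 of the 18187 other loci, or 15.2%, had r above 0.99.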

How the data were processed

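Messenger RNA of 6 seedling libraries, 3 per treatment, was sequenced. Per the submitters' processing notes, the authors used TopHat, Cufflinks and Cuffdiff with TAIR9, with versions and settings not given in the sources used here. The deposited values are FPKM for 61448 transcripts and 32424 loci, scaled by the authors for length and library, so depth is known only in relative terms, from the commonest ratio of values under 0.3 FPKM. Columns were matched through the sample descriptions, and 4 merged columns were not used. AT1G52825 had text in place of some transcript values, and its locus value was used.

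Loci averaging 1 FPKM or more were fitted on log2(FPKM + 1) with limma 3.58.1 in R 4.3.3 (a treatment term, trended prior variance), and p-values were adjusted over all loci (Benjamini-Hochberg, threshold 0.05). The fit was tested on simulated data. A gene with several loci was read from the most abundant one, and 3AT2 from its own locus. The genes and lists were chosen with earlier results of these data known. Every decorating gene and core pathway gene is named, and from each other pathway, regulator and family list up to 2 called lower and 2 called higher with the smallest adjusted p. Further genes of these lists are named where they limit a count. These lay below the filter, passed it through a single treatment or shared a joined locus. Green and root markers are given as sums, and a marker is named only where it limits a sum or count. Promoter windows of 250 bases were read from RefSeq TAIR10.1, whose nuclear chromosomes are, as background, those of the TAIR9 assembly; the deposited table itself holds no coordinates.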

Additional observations from a re-analysis of the deposited data

How the results depend on the processing

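Directions of the 7 decorating genes with a locus of their own were the same in all 15 alternatives run: another pseudocount, filters, scalings, the replicate block, no mean-variance trend, joined loci left out, each library left out, and transcripts summed per TAIR gene, the last chosen after seeing the data. The count of decorating genes called lower was 7, or 8 with transcripts summed, where SAT was added. The count called higher, 1 by locus, was 0 with joined loci left out and 0 with transcripts summed, where SAT stood at -2.44 in place of the 3.41 of its joined locus. The median log2 change of all loci, 0.06, was -0.0097 with no filter, -0.25 after upper-quartile scaling and -0.028 after quantile normalization. Over all pathway, regulator, family and marker lists, 37 loci were lower and 23 higher, beside 39.2% and 44.1% of all loci. With a filter of at least 5 FPKM, which leaves out loci of low level, 23 were lower and 20 higher. Nothing is drawn from these counts. The change of UGT78D2 was -1.42 under upper quartiles and -1.43 under quantiles, and that of UGT75C1, a gene listed at 0, was -3.66 with a pseudocount of 1 FPKM and -6.87 with 0.1 FPKM.

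The replicate numbers are not stated to mark a shared batch, and same-numbered libraries deviated from their group means with correlations of -0.013, -0.0087 and 0.018 over loci. With the replicate block 7061 loci were lower and 7951 higher, against 7125 and 8018 without it, and 7 decorating genes stayed lower. With 3 libraries per treatment and unknown absolute depth, levels near 0 carry no counting interval.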
